A study of Homo sapiens with 8 samples.

Results

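The clustered protocadherins are 53 protein-coding genes on chromosome 5 whose symbols begin with PCDHA, PCDHB or PCDHG, out of 20098 protein-coding genes on chromosomes 1 to 22 and X in the GENCODE annotation of GRCh37 (hg19). They comprise 15 alpha genes (chr5:140165721-140391932), 16 beta genes (chr5:140430959-140628933) and 22 gamma genes (chr5:140710081-140892544), all on the plus strand. They were examined in ChIP-seq data from the human lung adenocarcinoma line PC9, whose cells had been treated for 5 days with DMSO or with 1 μM GSK126, a small molecule inhibitor of the H3K27 methyltransferase EZH2. There were 8 libraries, 2 for each treatment with an antibody against H3K27me3 and 2 for each treatment with an antibody against H3K4me3, and Drosophila chromatin had been added to every ChIP as a spike-in. The 14 deposited files list islands, regions in which the SICER algorithm found more tags than a random background gives, each from 1 library. In the spike-in lists, tags had been removed from the GSK126 library according to the Drosophila tags, whereas in the standard lists the libraries of a replicate held the same number of tags. The H3K4me3 libraries with DMSO had 1 list each, which served in both comparisons. PC9 is a single cell line. The study calls the replicates biological, and the labels do not say how they were kept apart.

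Protocadherins of these clusters are cell adhesion molecules of the cadherin superfamily and are best known for giving single neurons distinct surface identities. Each alpha and gamma gene begins with a large variable exon that has its own promoter and encodes the extracellular, transmembrane and proximal cytoplasmic part of the protein, and this exon is spliced to constant exons shared by the whole cluster. The beta genes are separate transcription units without shared constant exons. H3K27me3 is deposited by the Polycomb complex PRC2, of which EZH2 is a catalytic subunit, at silent genes, and H3K4me3 marks active or poised promoters. Because all 15 alpha genes share 3 exons at their 3′ end and all 22 gamma genes share another 3, a gene body cannot be assigned to a single member. Coverage was therefore measured in a start window, the 4 kb from 2 kb before to 2 kb after each annotated start, and over the whole span of each cluster. Start windows of neighbouring members overlapped in 3 cases, and members are not independent of each other.

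To show the promoters that the measurements refer to, the 200 bases before the start are given for the member of each subfamily with the most H3K4me3 coverage in DMSO and for a member with none (plus strand, GRCh37, 5′ to 3′). The latter is the first by position among the 13 alpha, 15 beta and 19 gamma genes at 0 bp in both DMSO lists. Capitals mark the letters CGCT on either strand (AGCG on the other strand). These 4 letters are the core of a longer element described at many promoters of these clusters. A marked stretch does not by itself show that element, because CGCT also occurs in 71.0% of the promoters of all genes.
PCDHAC2, chr5:140345855-140346054: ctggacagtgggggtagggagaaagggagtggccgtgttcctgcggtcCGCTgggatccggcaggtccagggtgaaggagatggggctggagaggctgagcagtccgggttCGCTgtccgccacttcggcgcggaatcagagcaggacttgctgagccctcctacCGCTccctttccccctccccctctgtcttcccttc
PCDHA1, chr5:140165521-140165720: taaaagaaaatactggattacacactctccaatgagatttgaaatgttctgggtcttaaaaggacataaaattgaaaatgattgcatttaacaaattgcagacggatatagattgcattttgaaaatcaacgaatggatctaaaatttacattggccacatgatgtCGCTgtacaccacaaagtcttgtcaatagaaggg
PCDHB14, chr5:140602715-140602914: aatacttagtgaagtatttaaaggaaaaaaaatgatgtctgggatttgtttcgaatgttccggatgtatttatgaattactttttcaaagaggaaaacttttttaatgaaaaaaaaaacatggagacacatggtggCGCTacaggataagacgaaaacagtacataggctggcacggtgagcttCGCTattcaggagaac
PCDHB1, chr5:140430759-140430958: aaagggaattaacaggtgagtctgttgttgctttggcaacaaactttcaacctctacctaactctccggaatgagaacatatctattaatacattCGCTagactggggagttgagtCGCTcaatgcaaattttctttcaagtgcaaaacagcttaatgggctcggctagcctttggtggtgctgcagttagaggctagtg
PCDHGC3, chr5:140855314-140855513: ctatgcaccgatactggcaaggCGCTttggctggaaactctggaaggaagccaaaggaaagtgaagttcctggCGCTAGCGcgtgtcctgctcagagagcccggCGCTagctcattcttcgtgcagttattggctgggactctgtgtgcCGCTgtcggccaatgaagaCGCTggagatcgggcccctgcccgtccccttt
PCDHGA1, chr5:140709881-140710080: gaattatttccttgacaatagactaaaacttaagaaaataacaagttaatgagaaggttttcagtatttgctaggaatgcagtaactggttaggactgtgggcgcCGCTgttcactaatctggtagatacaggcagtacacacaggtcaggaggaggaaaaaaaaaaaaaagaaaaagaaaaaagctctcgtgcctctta
These stretches held 11 CpG dinucleotides in PCDHAC2, 13 in PCDHGC3 and 6 in PCDHB14, and 3 in PCDHA1, 4 in PCDHB1 and 3 in PCDHGA1, the last 3 being single picks among the genes at 0 bp. Within 250 bases before the start, CGCT occurred on either strand in 49 of 53 member promoters (92.5%) and in 71.0% of the promoters of all 20098 genes. The longer string GTGGCGCT, which contains CGCT and was chosen after the sequences had been seen, occurred in 13 of 16 beta promoters, in 0 of 15 alpha and 0 of 22 gamma promoters, and in 1.13% of all promoters. Both strands were searched, and a match is a description of the letters only.

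In DMSO, H3K27me3 was concentrated in the gamma cluster. In the spike-in lists, islands covered 28.0% and 34.7% of the gamma span in replicates 1 and 2, compared with 3.80% and 2.12% of the alpha span and 1.03% and 1.13% of the beta span. At the starts, an island was present in both DMSO lists for 14 of 22 gamma genes, for 1 of 15 alpha genes (PCDHAC2) and for 1 of 16 beta genes (PCDHB1). Together these 16 of 53 members made up 30.2%, and the same held for 19.5% of all protein-coding starts. A further 7 members, PCDHA1, PCDHGA1, PCDHGA2, PCDHGB1, PCDHGB2, PCDHGA10 and PCDHGA12, had an island in the start window in 1 DMSO list only, and the remaining 30 had none. A start window can reach an island that lies off the member's own variable exon. This was so at PCDHGA6 and PCDHGA8, and on the variable exon 12 of 22 gamma genes had an island in both DMSO lists. It was also so at PCDHGA1, PCDHGB2, PCDHGA10 and PCDHGA12, whose windows held 520, 40, 647 and 127 bp. The members without any island were PCDHA2 to PCDHA13, PCDHAC1, every beta gene except PCDHB1, and the gamma genes PCDHGA3 and PCDHGB7.

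After GSK126, no H3K27me3 island was listed in the alpha cluster and the covered length of the gamma cluster was lower, while an island was still listed at the single marked beta gene. The alpha span held 8.6 and 4.8 kb of islands with DMSO and 0 and 0 kb with GSK126 in the spike-in lists. The gamma span held 51 and 63.4 kb with DMSO and 28.4 and 21 kb with GSK126, so that its covered share dropped by 12.4 and dropped by 23.2 percentage points (mean difference -17.8 ± 7.67, SD, n = 2). The beta span held 2.04 and 2.24 kb with DMSO and 1.24 and 2.64 kb with GSK126, a difference of -0.101 ± 0.429 percentage points that was smaller than the spread between replicates. When only islands scoring at least 2 times the lowest score of their list were kept, the beta span held 2.04 and 2.24 kb with DMSO and 0 and 0 kb with GSK126 (-1.08 ± 0.0714 points) in the spike-in lists, whereas the standard lists still held 2.04 and 2.24 kb with GSK126. The alpha difference was -2.96 ± 1.19 points in the spike-in lists and -1.46 ± 0.313 with the stricter score. Over the 3 spans together the difference was -6.49 ± 1.73 points. The covered lengths of the DMSO and the GSK126 spike-in lists did not overlap for the alpha and gamma spans, and for the beta span they did. The whole lists did not overlap either, with 275 and 300 Mb covered with DMSO and 127 and 133 Mb with GSK126. The gamma span kept 55.7% and 33.1% of its DMSO length, compared with 46.3% and 44.2% over chromosomes 1 to 22 and X.

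**Figure D1:**
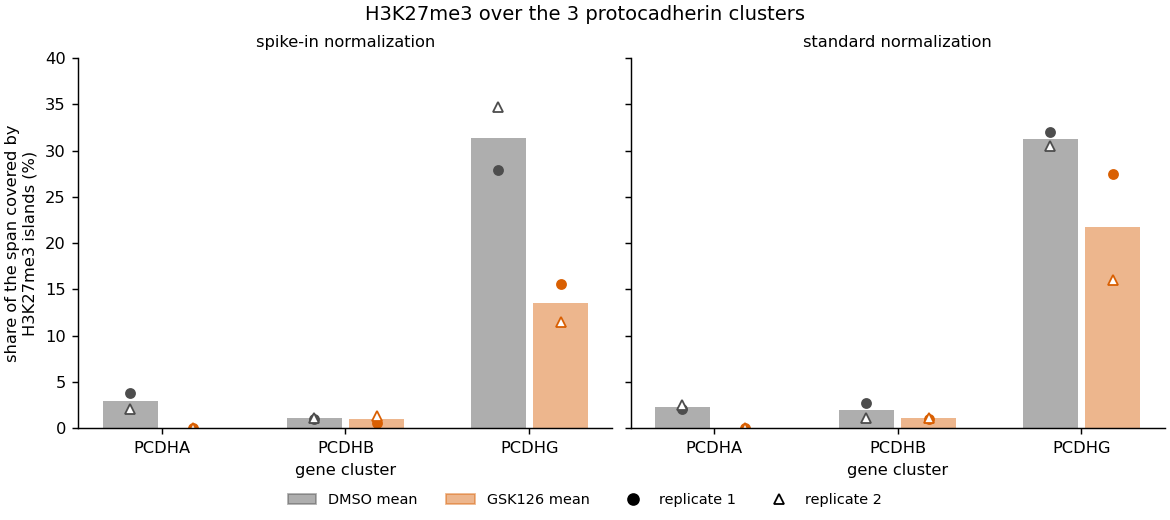
Share of each protocadherin cluster covered by H3K27me3 islands, in percent of the span, with DMSO and GSK126. Bars are means of 2 replicates and points are the replicates, for the spike-in lists (left) and the standard lists (right). The gamma cluster fell from 28.0% and 34.7% to 15.6% and 11.5% in the spike-in lists, and the alpha cluster held no island with GSK126 in any list.

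The standard lists, which hold equal tag numbers for both treatments of a replicate, gave smaller differences in the gamma cluster. The gamma span held 58.4 and 55.6 kb with DMSO and 50.2 and 29.2 kb with GSK126 (difference -9.48 ± 7.05 percentage points, SD, n = 2), with most of the difference in replicate 2. With the stricter score the gamma span held 47.6 and 40.4 kb with DMSO and 40.6 and 25.8 kb with GSK126 (-5.92 ± 2.95 points), so the lengths of the treatments overlapped. The alpha span held 4.8 and 5.6 kb with DMSO and again 0 and 0 kb with GSK126 (-2.30 ± 0.25 points), but with the stricter score it held 0 and 2.4 kb with DMSO, a difference of -0.530 ± 0.750 points that was within the spread between replicates. The tag density behind the lists, read from the island scores, was 1.65 and 2.33 tags per 200 bp with DMSO and 0.382 and 0.455 with GSK126 in the spike-in lists, that is 23.1% and 19.6% of DMSO. The densities of both treatments were equal in the standard lists, as their construction requires. The part of the tag number in the spike-in difference was not tested. With 2 replicates the smallest p that an exact sign-flip test can give is 0.5, so no p-values are given, and differences are set against the SD between replicates.

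The islands overlapped variable exons or pseudogenes, and part of their length lay outside the exons. Of the islands inside the gamma span, 12 of 12 and 16 of 16 in the DMSO spike-in lists overlapped a variable exon, here the exon that carries the start codon, or a protocadherin pseudogene. The same was true of every H3K27me3 island inside the alpha and beta spans in all 8 lists. The gamma variable exons were covered over 50.4% and 62.0% of their length with DMSO and over 30.9% and 17.4% with GSK126 in the spike-in lists. The remainder of the gamma span was covered over 17.7% and 22.3% with DMSO and over 8.54% and 8.80% with GSK126. With DMSO this remainder held 22.2 of the 51 kb and 27.9 of the 63.4 kb of island length in the gamma span. In the standard DMSO list of replicate 1 it held 30.7 of 58.4 kb. How often islands placed at random would overlap an exon was not computed. Most gamma islands spanned about the length of 1 variable exon, and the exception was the 3′ end of the variable region described below. The median was 2900 bp in each DMSO spike-in list and 3100 and 2600 bp in the standard DMSO lists.

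**Figure D2:**
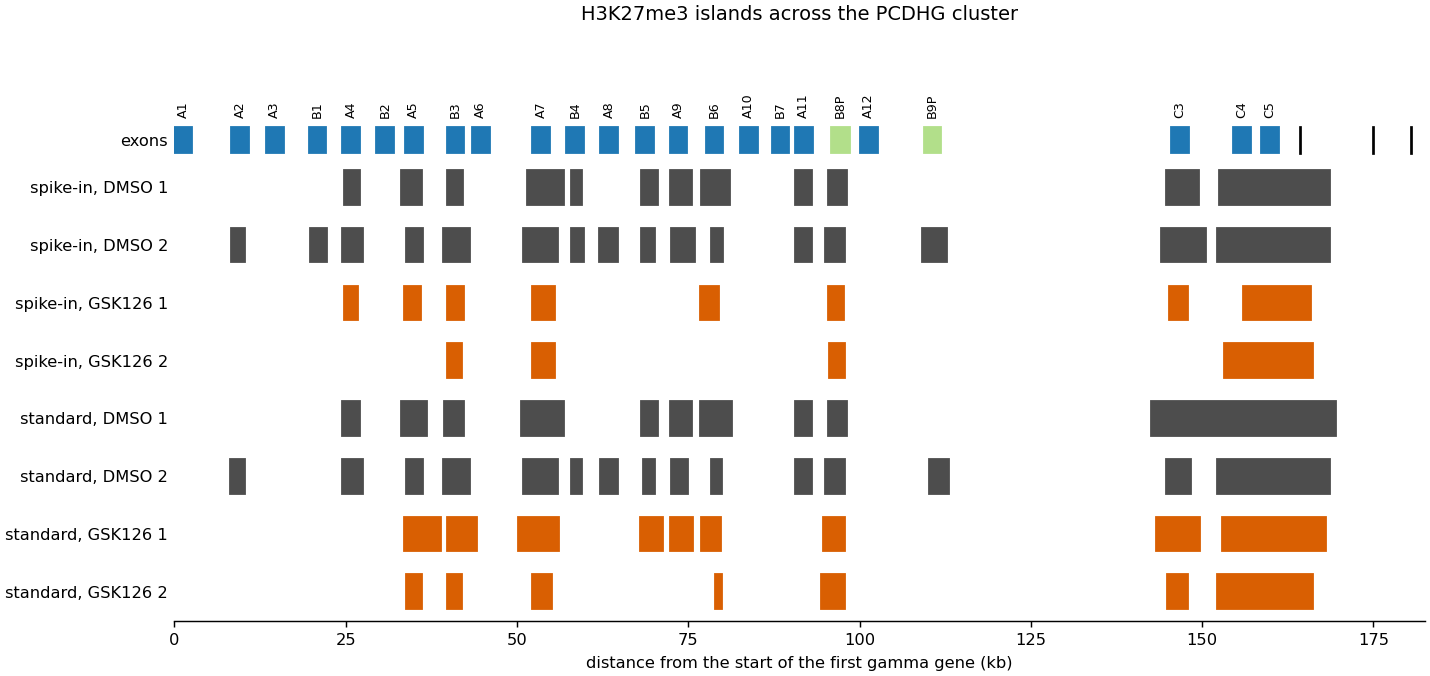
H3K27me3 islands along the gamma cluster, by distance in kb from the start of the first gamma gene. The top track shows the variable exons (blue, named without the PCDHG prefix), 2 pseudogenes (green) and the 3 shared exons (black lines), and the 8 tracks below show the islands of each list with DMSO (grey) and GSK126 (orange). Islands overlap variable exons or pseudogenes and extend beyond them in part, and the broad island over C4 and C5 is present in all 8 lists.

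In each H3K27me3 list the broadest island of the clusters covered PCDHGC4 and PCDHGC5, the last members of the gamma cluster and, with PCDHGC3, its C-type genes, which resemble the alpha C-type genes more than the other gamma genes. With DMSO it ran over chr5:140862601-140878800 (16.2 kb) in replicate 1 and over 16.6 kb in replicate 2 of the spike-in lists, from before the PCDHGC4 start to beyond the first shared exon. With GSK126 it measured 10 and 13 kb in those lists. In the standard DMSO list of replicate 1 it ran over 27 kb and also covered PCDHGC3. The standard GSK126 list of that replicate held separate islands there, of 6.4 kb at PCDHGC3 and 15.2 kb at PCDHGC4 and PCDHGC5. The PCDHGC5 start window was covered over its full 4000 bp in all 8 H3K27me3 lists. The PCDHGC4 window was covered over 3963 and 4000 bp with DMSO and over 563 and 3363 bp with GSK126 in the spike-in lists. In those lists both edges of the island lay further inward with GSK126, the 5′ edge by different amounts in the replicates. In the standard lists the PCDHGC4 window was covered over 4000 bp in each DMSO list and over 3563 and 4000 bp with GSK126. The part of the tag number in this difference was not tested. At PCDHGC3 the window held 2713 and 3513 bp with DMSO and 2313 and 0 bp with GSK126 in the spike-in lists, and the standard lists held 4000 and 2713 bp with DMSO and 4000 and 2513 bp with GSK126. The loss at PCDHGC3 was thus seen in a single list.

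Among the A-type and B-type gamma genes, PCDHGA7 and PCDHGB3 retained their islands. The PCDHGA7 window was covered over 2705 and 3305 bp with DMSO and over 2105 bp in each GSK126 spike-in list. The PCDHGB3 window was covered over 2008 and 2608 bp with DMSO and over 2008 bp in each GSK126 list. In the spike-in lists PCDHGA4, PCDHGA5 and PCDHGB6 retained their islands in replicate 1 only. Their windows held 1787, 2128 and 2787 bp with GSK126 in that replicate, against 1787, 2528 and 2600 bp with DMSO. In replicate 2 the same 3 windows held 1987, 1928 and 1600 bp with DMSO and 0 bp with GSK126. The pattern differed in the standard lists. There, with GSK126, PCDHGA5 held 2128 and 1928 bp and PCDHGB6 held 2800 and 587 bp, while PCDHGA4 held 0 bp in both replicates.

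By contrast, islands at PCDHGB5, PCDHGA9 and PCDHGA11 were absent from both GSK126 spike-in lists. PCDHGB5 was covered over 1313 bp in each DMSO list, PCDHGA9 over 2200 and 1744 bp, and PCDHGA11 over 2013 bp in each DMSO list. PCDHGB4 fell from 3000 and 2000 bp to 336 bp in each GSK126 list, and those 336 bp belong to the end of the PCDHGA7 island, since the PCDHGB4 variable exon itself was covered over 1600 and 1800 bp with DMSO and over 0 bp in either GSK126 list. The PCDHGA8 window, covered over 1600 and 1800 bp with DMSO and over 0 bp with GSK126, lies on the same PCDHGB4 island because the annotated PCDHGA8 start is 2657 bp before its start codon. The PCDHGA8 variable exon had an island in DMSO replicate 2 only. PCDHGA11 was again covered over 2013 bp in each standard DMSO list and over 0 bp with GSK126, whereas PCDHGB5 and PCDHGA9 held 1513 and 3000 bp with GSK126 in replicate 1.

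At the remaining marked members, PCDHAC2, the last alpha gene, was covered over 1854 and 2000 bp with DMSO and over 0 bp in both GSK126 spike-in lists. Of the standard lists, that of DMSO replicate 2 alone covered it, over 2454 bp. PCDHB1, the first beta gene, was covered over 2558 and 4000 bp with DMSO and over 2200 and 2558 bp with GSK126 in the spike-in lists, and in the standard lists over 2758 and 2558 bp with either treatment. PCDHA1, the first alpha gene, was covered over 1720 bp in DMSO replicate 1 and PCDHGA1, the first gamma gene, over 520 bp in DMSO replicate 2, and neither had an island with GSK126. PCDHB15, the last beta gene, had no H3K27me3 island in any list.

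**Figure D3:**
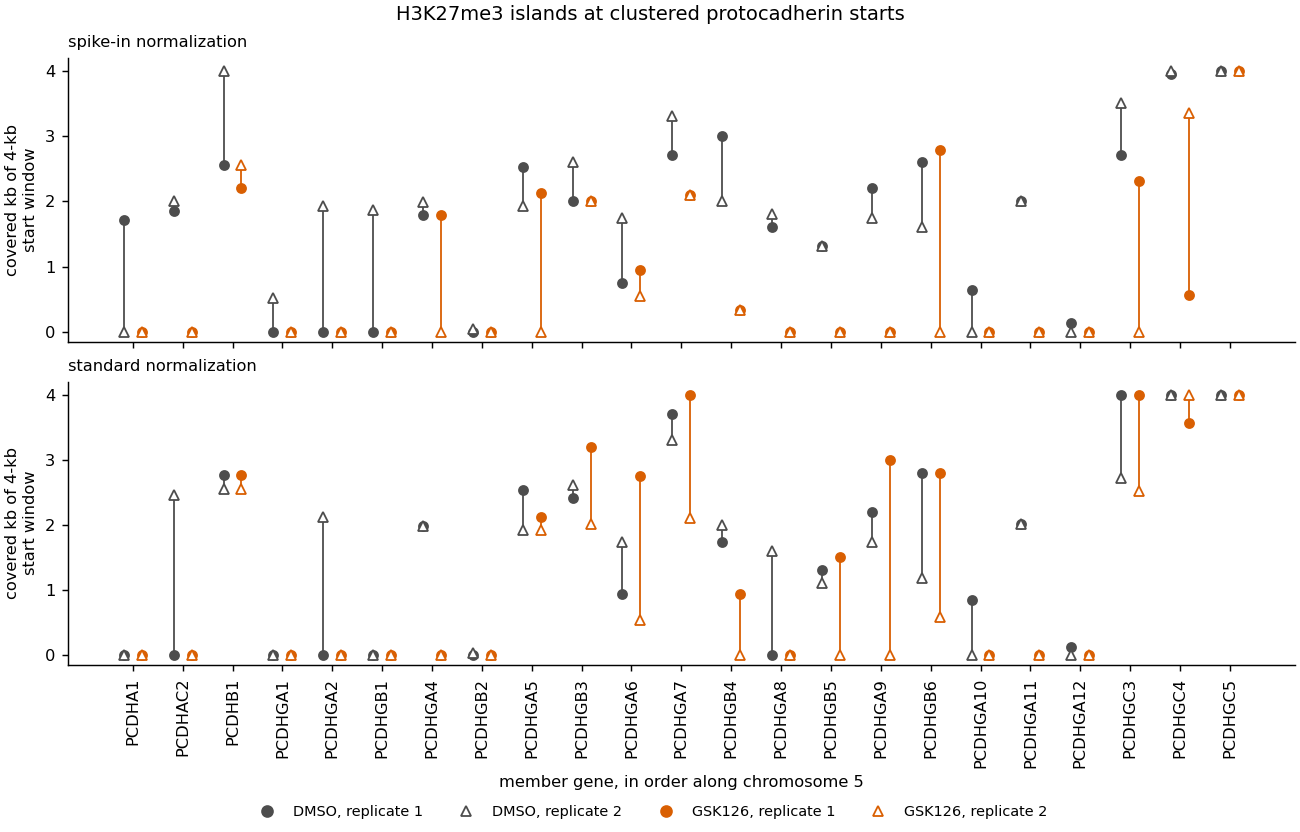
H3K27me3 coverage in kb of the 4-kb start window for the 23 members with an island in at least 1 list, with DMSO (grey) and GSK126 (orange), replicate 1 (circles) and replicate 2 (triangles). PCDHGC5 stays at 4 kb in every list, and PCDHGA11 falls from about 2 kb to 0 in both replicates of both normalizations.

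Counted over all members, 6 of 53 start windows lost at least 1000 bp of H3K27me3 coverage in both replicates of the spike-in lists (PCDHAC2, PCDHGB4, PCDHGA8, PCDHGB5, PCDHGA9 and PCDHGA11), compared with 8.12% of all protein-coding starts. Among the windows with at least 1000 bp of coverage in both DMSO lists this was 6 of 15 members, against 45.6% of all such starts. Of the 16 members with an island in both DMSO lists, 5 had none in either GSK126 list (PCDHAC2, PCDHGA8, PCDHGB5, PCDHGA9 and PCDHGA11), against 34.8% of all such starts and 6.79% of all starts. No member gained 1000 bp (0.00995% of all starts did) or a new island (0.00498%). With both replicates required, the shares of members were thus near those of all starts. Without replicate 1, 15 members (28.3%) were lower and 13 (24.5%) were lost, against 12% and 10.5% of all starts. Without replicate 2, 8 members (15.1%) were lower and 8 were lost, against 11.6% and 9.44% of all starts. The number of lower members also depended on the window, being 1 with 1 kb (5.19% of all starts) and 12 with 5 kb (15.7% of all starts) either side of the start. In the standard lists 2 of 53 members, PCDHGA4 and PCDHGA11, were lower (2.26% of all starts) and the same 2 of 14 were lost (10.3% of all starts with islands and 1.84% of all starts), and 0 were higher (0.239%) or gained an island (0.149%). Without replicate 1 the standard counts were 10 lower and 9 lost (5.98% and 5.03% of all starts), and without replicate 2 they were 2 lower and 4 lost (4.6% and 3.83% of all starts) and 1 higher, the last being PCDHGA6 with 943 bp with DMSO and 2743 bp with GSK126. That coverage belonged to islands on PCDHGB3, which held 0 bp of the PCDHGA6 variable exon with DMSO and 743 bp with GSK126. The share of all starts for the higher count is not given here.

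The total covered length of the member start windows after GSK126 was 52.8% and 34.0% of that with DMSO in the spike-in lists (43.4 ± 13.3, SD, n = 2). Over all protein-coding starts it was 51.7% and 51.2%, and over chromosomes 1 to 22 and X it was 46.3% and 44.2%. In replicate 1 of the spike-in lists the members were level with all starts, and in replicate 2 they were lower. With standard normalization the members held 92.7% and 51.7% of the DMSO length and all starts held 86.3% and 78.5%. The mean covered share of a member start window changed by -11.3 ± 3.36 percentage points in the spike-in lists and by -5.09 ± 5.39 in the standard lists, and the latter difference was within the spread between replicates (SD, n = 2).

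In the spike-in lists, members with islands left after GSK126 had mostly ranked higher in DMSO. Each island was ranked by its score within its own list, as the percentage of islands with lower scores. The 5 members whose variable exon carried an island in all 4 spike-in lists (PCDHB1, PCDHGB3, PCDHGA7, PCDHGC4 and PCDHGC5) had DMSO percentiles from 65.1 to 92.2. The 4 members with an island in 1 GSK126 list (PCDHGA4, PCDHGA5, PCDHGB6 and PCDHGC3) had percentiles from 37.9 to 70.0, and the 5 with none (PCDHAC2, PCDHGB4, PCDHGB5, PCDHGA9 and PCDHGA11) had percentiles from 4.26 to 58.4. Sorted in the same way, the standard lists gave overlapping ranges, from 44.7 to 92.2 for 8 members with an island in both GSK126 lists, from 18.4 to 52.6 for 2 with an island in 1, and from 22.96 to 36.3 for 2 with none. These DMSO values come from the same lists that define the difference, the grouping was made after the values had been seen, and PCDHGC4 and PCDHGC5 share an island, so the ranges are given without a test. In the standard DMSO list of replicate 1 PCDHGC3 shares that island too.

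Of 6 protocadherin pseudogenes inside the clusters, chosen after their values had been seen, 3 carried islands. PCDHA14, a pseudogene of the alpha cluster at chr5:140240809-140243106, was covered over its full length in all 4 DMSO lists and over 0 bp in all 4 GSK126 lists. These islands also lie on AC005609.1, a gene annotated as protein-coding on the minus strand at chr5:140240341-140243224. PCDHGB8P was covered over 81.7% and 74.8% of its length with DMSO and over 67.8% and 74.8% with GSK126 in the spike-in lists. PCDHGB9P had an island only in the lists of DMSO replicate 2, and the beta pseudogenes PCDHB17P, PCDHB18P and PCDHB19P had none in any list.

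CpG content did not follow the same order. In the 2.4 kb from the start codon, the 15 alpha genes held from 40.4 to 80.8 CpG per kb (median 72.9), the 16 beta genes from 28.3 to 60.4 (median 51.7) and the 22 gamma genes from 27.9 to 68.8 (median 51.9). The 14 members with an H3K27me3 island on the variable exon in both DMSO spike-in lists held from 27.9 to 57.1 CpG per kb (median 43.5), and the 35 without an island in either list held from 41.3 to 80.8 (median 57.1). Within the gamma cluster, the 12 members with an island had a median of 48.1 and the 7 without had a median of 54.2, with overlapping ranges. PCDHGC5 at 27.9, PCDHB1 at 28.3 and PCDHGC4 at 30.4 CpG per kb were the lowest, and all 3 carried islands in both DMSO lists. These are descriptions across members that share sequence, without a test. Sequence shared between members could leave tags without a unique position, and 50-base stretches that recur within the region made up a median of 5.64% of the alpha, 6.99% of the beta and 0.962% of the gamma start windows, with the highest share (28.2%) at PCDHB8. Its part in the lack of islands at alpha and beta starts was not tested.

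**Figure D4:**
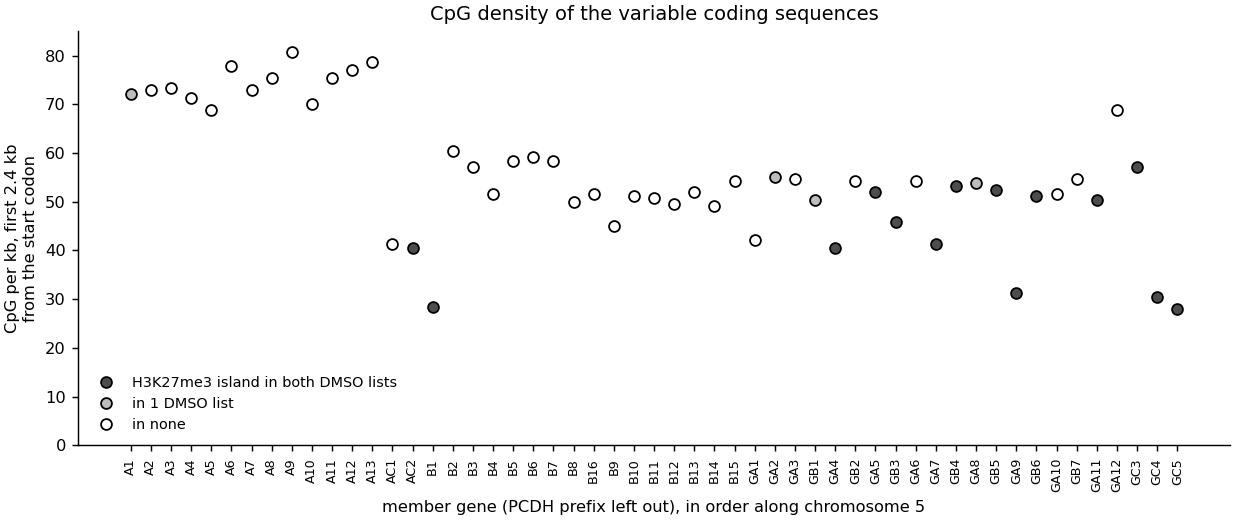
CpG dinucleotides per kb in the 2.4 kb from the start codon of each member, in order along chromosome 5. Filled circles carry an H3K27me3 island on the variable exon in both DMSO spike-in lists, grey circles in 1 list and open circles in none. Most alpha genes lie above 60 CpG per kb without an island, and PCDHGC5 and PCDHB1 are the lowest and carry islands.

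H3K4me3 was found at few members. An island was present in both DMSO lists at PCDHAC1, PCDHAC2 and PCDHGC3, that is 3 of 53 members (5.66%), whereas 60.6% of all protein-coding starts had an island. These 3 are C-type genes, and the other C-type genes, PCDHGC4 and PCDHGC5, had none. PCDHAC1 was covered over 2483 and 1800 bp in replicates 1 and 2 with DMSO and over the same lengths with GSK126 in the spike-in lists. PCDHAC2 was covered over 3654 and 1400 bp with DMSO and over 3000 and 1600 bp with GSK126. PCDHGC3 was covered over 1800 and 1400 bp with DMSO and over 1800 and 1000 bp with GSK126. In all 3 the range of one treatment overlapped that of the other. PCDHB14, PCDHGA10 and PCDHGA11 had H3K4me3 islands of 1000, 1000 and 1200 bp in DMSO replicate 1, of 1200 bp each in GSK126 replicate 1 of the spike-in lists, and none in replicate 2. The tag density of the H3K4me3 DMSO lists was 1.77 tags per 200 bp in replicate 1 and 0.302 in replicate 2, and the part of depth in the absence of these smaller islands from replicate 2 was not tested.

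**Figure D5:**
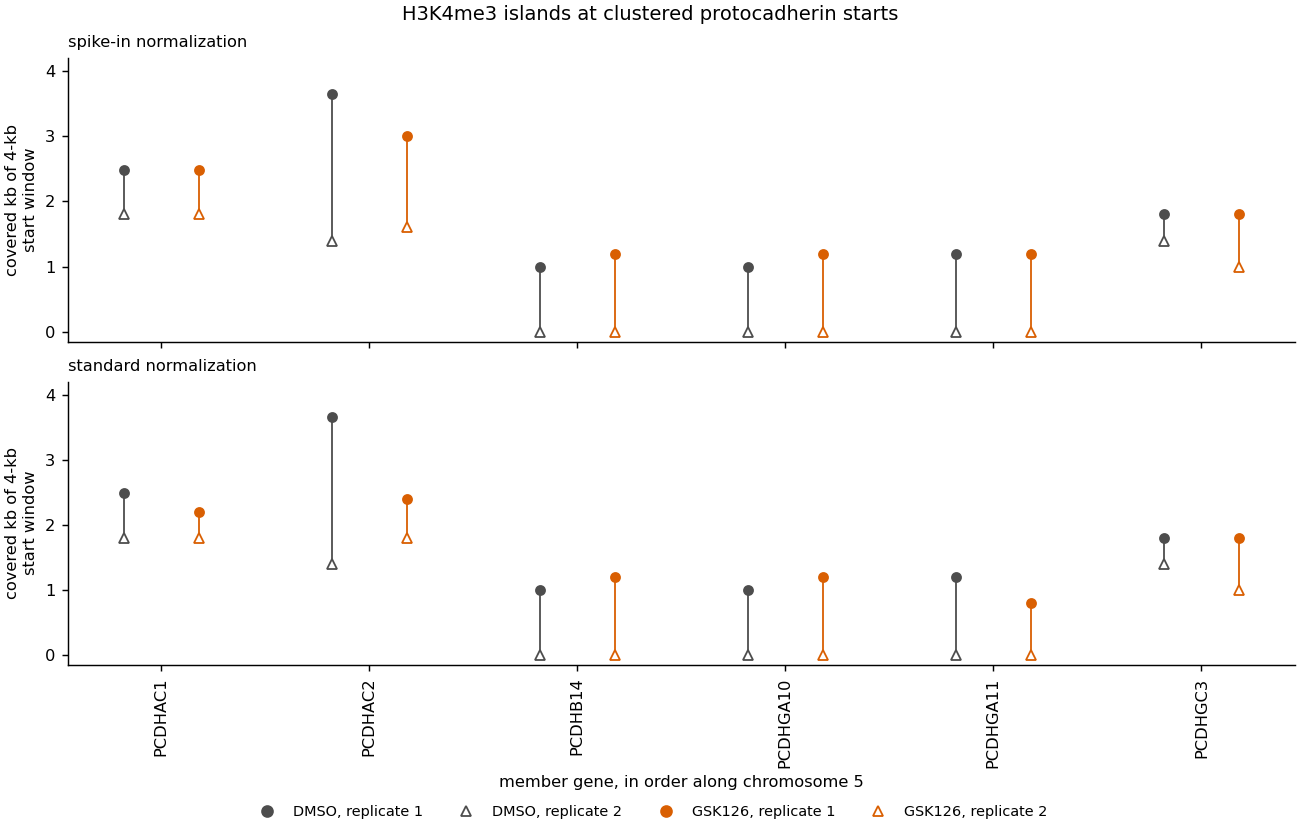
H3K4me3 coverage in kb of the 4-kb start window for the 6 members with an island in at least 1 list, with DMSO (grey) and GSK126 (orange), replicate 1 (circles) and replicate 2 (triangles). PCDHAC1, PCDHAC2 and PCDHGC3 are covered in every list, and PCDHB14, PCDHGA10 and PCDHGA11 in replicate 1 only.

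H3K4me3 at the members was not called different after GSK126. No member was lower by 1000 bp in both replicates of the spike-in lists (0.209% of all starts were), higher (0.0149%), lost (0.114%) or gained (0.0249%), and the standard lists also gave 0 lower (0.209%), 0 higher (0.0199%), 0 lost (0.0697%) and 0 gained (0.0498%). The mean covered share of the start windows differed by -0.107 ± 0.018 percentage points in the spike-in lists and by -0.363 ± 0.513 in the standard lists (SD, n = 2). The first of these changed sign with windows of 1 or 5 kb either side of the start, to 0.227 and 0.0943 points. No member had an H3K4me3 island with GSK126 in a replicate in which it had none with DMSO. With standard normalization the PCDHAC2 window was covered over 3654 and 1400 bp with DMSO and over 2400 and 1800 bp with GSK126, and it was lower by 1000 bp only in replicate 1.

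Both marks were found in the same start window in DMSO for PCDHAC2 and PCDHGC3 in both replicates of the spike-in lists, and for PCDHGA10 and PCDHGA11 in replicate 1. These were 4 of 53 members (7.55%) in replicate 1 and 2 of 53 (3.77%) in replicate 2, against 7.90% and 6.99% of all starts. At PCDHGA10 the islands of the marks did not overlap. Its H3K27me3 island was that of PCDHGB6 and ended at chr5:140791200, and its H3K4me3 island began at chr5:140792401. With GSK126, PCDHGC3 in replicate 1 was the only member with both marks in its window in the spike-in lists, whereas in the standard lists PCDHGC3 held both marks in both replicates. Islands of 2 libraries do not show that both marks were on the same molecules.

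Further H3K4me3 islands lay away from member starts. In the alpha cluster an island at chr5:140380601-140383000 in DMSO replicate 1 lay in the intron between the second and the third shared exon, and an island overlapped it in every H3K4me3 list. Another at chr5:140419001-140421000 lay downstream of the third shared exon, before the beta cluster, and likewise had a counterpart in every list. The alpha cluster is known to have enhancers in that intron and downstream of its last shared exon, and whether these islands coincide with them was not tested. In the gamma cluster an island at chr5:140887801-140889600 lay between the second and the third shared exon and was seen in replicate 1 only.

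The non-clustered protocadherins were examined in the same windows. Of 11 genes, PCDH8 and PCDH20 had an H3K27me3 island in both DMSO spike-in lists, as did 19.5% of all protein-coding starts. PCDH8 was covered over 4000 bp in each DMSO spike-in list and over 0 bp in each GSK126 spike-in list. Of all starts with an island in both DMSO spike-in lists, 34.8% likewise had none in either GSK126 list. In the standard lists PCDH8 held 4000 and 2975 bp with DMSO and 4000 and 3025 bp with GSK126. PCDH20 was covered over 1819 and 4000 bp with DMSO and over 2019 and 1819 bp with GSK126 in the spike-in lists. PCDH1, PCDH7, PCDH9 and PCDH12 had an H3K4me3 island in both DMSO lists, as did 60.6% of all protein-coding starts, and none of the 11 was lower or higher for H3K4me3. Of 15 regulators of these clusters, among them CTCF and the cohesin subunit RAD21, which shape promoter choice, the repressors SMCHD1, SETDB1 and REST, and the PRC2 subunits EZH2 and SUZ12, 14 had an H3K4me3 island in both DMSO lists (the exception was EED, another PRC2 subunit, with 0 bp in every list) and 0 had an H3K27me3 island, and 0 were lower or higher. Only the outermost annotated start of each gene was examined, so H3K4me3 elsewhere in EED was not assessed. Among neighbouring genes, TAF7, a TFIID subunit located between the beta and gamma clusters, was covered by H3K4me3 over 3050 and 2000 bp with DMSO and over 3050 and 1600 bp with GSK126 in the spike-in lists. No H3K27me3 island was found in both DMSO lists at TAF7, SLC25A2, ZMAT2, HARS1, DIAPH1 or HDAC3. H3K4me3 marked the starts of 5 of 6 lung epithelial genes and of 0 of 3 blood cell genes in both DMSO lists, against 60.6% of all protein-coding starts. The exception, EPCAM, was covered by H3K4me3 over 2704 bp in DMSO replicate 1 and over 0 bp in replicate 2. NKX2-1, among the 5, also carried H3K27me3 over 3000 and 4000 bp in the DMSO spike-in lists.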

How the data were processed

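PC9 cells were profiled by ChIP-seq for H3K27me3 and H3K4me3 (8 libraries, 14 island lists). According to the study's methods and the submitters' processing notes, the authors mapped single-end reads of 50 nt to hg19 (BWA; SAMtools 0.1.18), discarded duplicate and non-unique tags, removed tags at random for each normalization, and ran SICER on each library. SICER windows were 200 bp, the E-value was 1, and the gap was 600 bp in H3K27me3 and 200 bp in H3K4me3 lists. The value deposited by the authors for each island is a score, the sum of negative log Poisson probabilities over its windows. Its only uses were ranking and filtering within a list and the estimate of tag density. Lists hold no tag counts, so no counting interval was computed.

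Coverage in base pairs came from scripts in Python 3.11.15 (numpy 2.4.6), with plots in matplotlib 3.10.9. Coverage and calls were tested on simulated data. None of the 331092 islands ran past a GRCh37 chromosome end. Replicates were taken from the study's library names and were paired because the authors removed tags within a replicate. A start was lower or higher when its covered length differed by at least 1000 bp in both replicates, lost when an island was present in both DMSO lists and in no GSK126 list, and gained in the opposite case, with an overlap of at least 1 bp. No test was applied, because an exact sign-flip test over 2 replicates cannot give a p below 0.5.

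Named members were the first and last of each cluster, the C-type genes and PCDHB1, and in each subfamily those with the 3 largest and 3 smallest coverages of each mark in DMSO and the 3 largest decreases of H3K27me3, together with neighbouring genes. The members and gene lists were chosen with earlier results of these data known. Promoter sequences were read from the GRCh37 genome. Alternatives were a score of at least 2 times the lowest of the list, H3K27me3 islands of at least 2000 bp and H3K4me3 islands of at least 600 bp, windows of 1 or 5 kb either side, a change of 400 bp, leaving out each replicate, leaving out the pairing, and the standard DMSO list against the spike-in GSK126 list. The variable exon in place of the start window was added after the data were seen.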

Additional observations from a re-analysis of the deposited data

How the results depend on the processing

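The alternatives kept the direction of the H3K27me3 difference over the 3 spans as a whole and over the start windows, in both normalizations. For single clusters, the stricter score moved the alpha difference from -2.96 to -1.46 points (spike-in) and from -2.30 to -0.530 (standard), and the beta difference from -0.101 to -1.08 (spike-in). The beta difference was also -0.960 against the standard DMSO lists, and without replicate 1 it was 0.202 (spike-in) and 0 (standard). The mean H3K27me3 difference of the start windows was -11.3 percentage points in the spike-in lists and -15.6 over the variable exons. The number of members lower in the spike-in lists (6, against 8.12% of all starts) became 10 with a change of 400 bp (11% of all starts). It became 1 with windows of 1 kb (5.19% of all starts) and 12 with windows of 5 kb either side (15.7% of all starts). The number lost (5) became 12 without the replicate pairing and 3 against the standard DMSO lists. In the standard lists the number lower (2) became 1 with the stricter score, 1 with 1-kb windows, 5 with 5-kb windows and 5 without the replicate pairing, and the number lost (2) became 1 with the stricter score, 4 with 5-kb windows and 8 without the pairing. Where no share of all starts stands beside a count, the count shows only its dependence on the setting and is not a result about the members. Leaving out either replicate gave 8 to 15 lower (11.6% to 12% of all starts) and 8 to 13 lost (9.44% to 10.5% of all starts) in the spike-in lists. In the standard lists it gave 2 to 10 lower, 0 to 1 higher and 4 to 9 lost, and for H3K4me3 0 to 1 lower (PCDHAC2 without replicate 2). Counts from a single replicate are higher by construction, since both replicates were otherwise required. For H3K4me3 in the spike-in lists the mean difference of the start windows, -0.107 points, became -0.154 with the stricter score, and its sign changed to 0.227 with 1-kb windows, 0.0943 with 5-kb windows and 0.0342 over the variable exons, all of them differences smaller than 0.3 points. The cause of these changes was not tested. The replicate pairing left the mean differences over spans and windows as they were.

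The H3K4me3 DMSO list of replicate 2 had a tag density of 0.302 per 200 bp, against 1.77 in replicate 1, and whether this limited the detection of the islands seen in replicate 1 only was not tested.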
